A study of Mus musculus with 6 samples.

Results

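The genes described here encode the machinery that imports proteins into mitochondria: 35 protein-coding genes out of 57180 gene identifiers in the deposited table. They were chosen by name, as all genes whose mouse symbol begins with Tomm or Timm followed by a digit, plus Samm50, Chchd4, Gfer, Pam16, Dnajc19, Grpel1, Pmpca, Pmpcb, Mipep and Immt. Pseudogenes and antisense genes with such names were left out. The 6 RNA sequencing libraries came from mouse bone marrow-derived macrophages, wild-type by the labels, grown for 5 days under conditions that drive them to become bone-resorbing osteoclasts. The 3 control libraries had no Visomitin and the 3 Visomitin libraries had it. Visomitin (SkQ1) is an antioxidant plastoquinone joined to a lipophilic cation, which concentrates in mitochondria. The labels give neither its dose nor the mouse strain, age or sex, and do not say whether libraries came from separate mice or cultures. The p-values therefore reflect only how far these 6 libraries vary, and that variation may be technical.

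Nearly all mitochondrial proteins are made in the cytosol and carried across the mitochondrial membranes. The TOM complex of the outer membrane is the common entry gate. Behind it, small TIM chaperones and a disulfide relay handle proteins in the intermembrane space, the TIM23 complex with its motor draws proteins with a presequence into the matrix, and the TIM22 complex inserts carrier proteins into the inner membrane. Matrix peptidases then remove the presequence. Osteoclasts are known for their many mitochondria, which they gain as they mature.

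Expression is given in TPM, a relative transcript abundance that corrects for transcript length, so that levels can be compared between genes. The depth of the libraries is unknown, since TPM does not retain it. Each library had from 11551 to 11821 genes at or above 1 TPM. All 6 osteoclast markers examined fell with Visomitin, their summed level going from between 7226 and 8099 TPM in control to between 1704 and 1806 TPM. Of 5 macrophage markers 1 rose and 0 fell, with sums of 4233 to 4498 TPM in control and 3827 to 5047 TPM with Visomitin. In bulk RNA, fewer osteoclasts and less RNA per osteoclast cannot be told apart, and this touches every result below. Of the 5 stromal markers 4 were tested and 0 passed limma (2 at unadjusted p under 0.05, Col1a1 and Dcn, both lower), and their sum was 109 to 312 TPM in control and 72.7 to 160.4 TPM with Visomitin, with Lum at no more than 0.06 TPM. Their part in the results was not tested. All 3 erythroid markers, 4 of 5 neutrophil markers (S100a9, Ly6g, Mpo and Elane) and the T cell marker Cd3e were listed at 0 in every library. The neutrophil marker S100a8 was at 11.4 to 19.5 TPM in control and 8.82 to 15.3 TPM with Visomitin, and the endothelial markers summed to 1.13 to 2.22 TPM and 0.90 to 2.03 TPM. The B cell marker Cd79b was at 0.30 to 0.51 TPM in control and 0.80 to 1.65 TPM with Visomitin, without overlap, and was too low to be tested. The part of these cells in the results was not tested.

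Of the 35 genes, 33 reached 1 TPM in at least 3 libraries and were tested, and 7 fell with Visomitin, 0 rose and 26 did not pass. The 7 included the outer membrane genes Tomm40, Tomm70, Tomm5 and Samm50. The others were Timm23 of the inner membrane, Grpel1 of its import motor, and Chchd4 of the intermembrane space. Decreases of the 7 were between 1.31-fold for Samm50 and 1.49-fold for Tomm40 and Tomm5 on the log2(TPM + 1) scale. All differences here are given on this scale as Visomitin minus control. Among all 11753 tested genes, 7.1% were called, 5.03% lower and 2.08% higher (limma with Benjamini-Hochberg adjustment over all of them, threshold 0.05), against 21.2% of tested members called lower. Over all tested genes 591 were lower and 244 higher, a split that was 674 and 496 after median-ratio scaling and 651 and 559 after quantile normalization. At unadjusted p under 0.05 there were 15 of 33 members, 0 of them higher, where 24.4% of all tested genes met this limit and 15.2% met it and were lower. The median difference was -0.22 for members and -0.03 for all tested genes, and 29 of 33 members lay below 0, against 55.7% of all tested genes. After median-ratio scaling 27 lay below 0, and 26 after quantile normalization. Group ranges did not overlap for 16 members, all lower with Visomitin, where 18.4% of all tested genes were lower without overlap. Tomm20l and Timm8a2 were listed at 0 in every library.

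The number of calls changed when single libraries were left out. Leaving out control 2, control 3 or Visomitin 2 left 0 members called by limma, with 10, 9 and 10 of 33 at unadjusted p under 0.05. In these fits 2.81%, 2.46% and 2.59% of all tested genes were called lower, and 20.9%, 17.9% and 18.5% had an unadjusted p under 0.05. Without control 1 the count was 1 (Tomm5), without Visomitin 1 it was 7, of which 4 were among the original 7, and without Visomitin 3 it was 8, of which 6 were. Each such fit also has fewer residual degrees of freedom. The direction of the 7 genes could not change in these 6 fits, because all their Visomitin values were below all their control values.

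**Figure D1:**
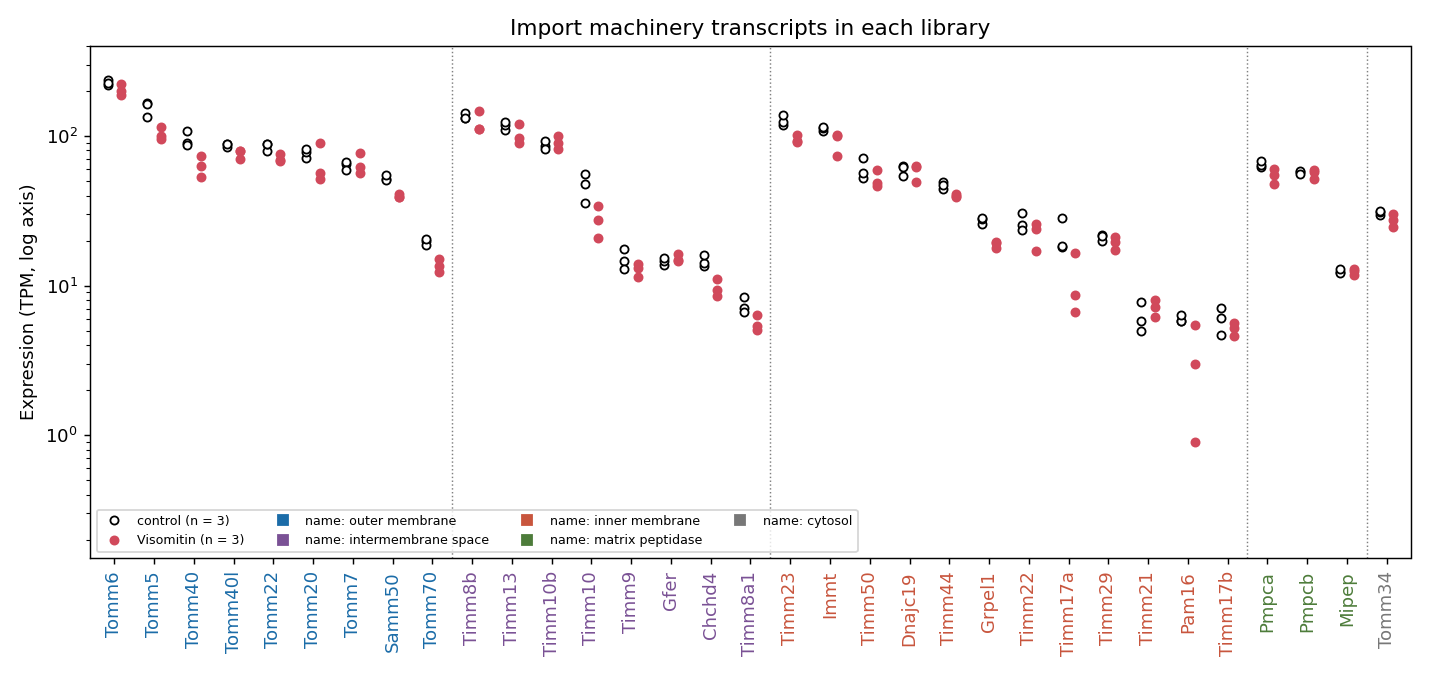
Expression of the 33 tested import machinery genes in each library, in TPM on a log axis. Open points are the 3 control libraries, filled points the 3 Visomitin libraries, and name colours give the compartment. Filled points lie below all open points for 16 genes, among them Tomm5, Tomm40, Samm50, Chchd4, Timm23 and Grpel1.

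Since 7 members fell, the DNA before their start sites was read from RefSeq (GRCm38.p6), where 32 of the 35 genes have an entry. Windows ran from 250 bases before to 50 bases after the start and were searched on both strands for the motifs of NRF1 (GCGCANGCG), the ERR receptors (TNAAGGTCA), ATF4 (TGATGNAA), ETS factors (CCGGAAGT), YY1 (AAGATGGCG) and the CCAAT box, the last added after the sequences were seen. NRF1, ERR, ETS and YY1 motifs are known from promoters of nuclear genes for mitochondrial proteins. The NRF1 motif was in 6 of 32 members (Chchd4, Immt, Pam16, Timm13, Timm8b and Tomm20) and in 7.03% of all genes in the table. The ETS motif was in 7 of 32 members and in 4.31% of all genes. ERR and YY1 motifs were each in 1 member, the ATF4 motif in 0, against 1.43%, 1.64% and 4.51% of all genes. CCAAT was in 12 members and in 41.1% of all genes. Shown are the promoters of 4 genes that fell, the 3 with an NRF1 or ETS match and that of Tomm40 for its CCAAT boxes, cut off where a transcript begins, 5′ to 3′ on the strand of the gene, with the matches in capitals. The Tomm40 promoter (chr7:19715439-19715679, minus strand) has 5 CCAAT boxes, 220, 197, 150, 101 and 48 bases before the start, a number reached by 0.271% of all windows and by no other member, the next having 3. The Tomm70 promoter (chr16:57121464-57121702, plus strand) and the Timm23 promoter (chr14:32201899-32202141, minus strand) each have 1 ETS motif, 80 and 48 bases before the start. In the Chchd4 promoter (chr6:91473547-91473673, minus strand) 1 NRF1 motif begins 195 bases before the start. None of these matches overlap each other, and a match of letters does not show that a factor binds.
Tomm40: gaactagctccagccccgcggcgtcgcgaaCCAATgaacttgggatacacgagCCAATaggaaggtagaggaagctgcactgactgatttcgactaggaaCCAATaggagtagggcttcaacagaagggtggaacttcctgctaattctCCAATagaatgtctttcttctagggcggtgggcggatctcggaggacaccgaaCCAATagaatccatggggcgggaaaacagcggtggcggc
Tomm70: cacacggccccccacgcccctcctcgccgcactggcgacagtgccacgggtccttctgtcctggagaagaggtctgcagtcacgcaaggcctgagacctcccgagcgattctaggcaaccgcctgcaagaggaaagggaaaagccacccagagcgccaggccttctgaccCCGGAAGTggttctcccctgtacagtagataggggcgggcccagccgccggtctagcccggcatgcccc
Timm23: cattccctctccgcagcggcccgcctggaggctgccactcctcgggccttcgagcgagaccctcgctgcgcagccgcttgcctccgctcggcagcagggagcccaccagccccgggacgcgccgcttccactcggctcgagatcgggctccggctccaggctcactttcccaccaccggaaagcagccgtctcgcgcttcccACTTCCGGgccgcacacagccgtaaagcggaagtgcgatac
Chchd4: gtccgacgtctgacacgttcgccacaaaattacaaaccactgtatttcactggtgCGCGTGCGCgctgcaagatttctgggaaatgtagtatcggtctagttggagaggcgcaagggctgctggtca
Of the 7 genes that fell, the NRF1 motif was in 1 and the ETS motif in 2, and of the 23 tested genes in the promoter table that did not pass, 5 held the NRF1 motif and 4 the ETS motif. Counted over whole windows, CCAAT was in 3 of the 7 (Tomm40, Samm50 and Grpel1) and in 8 of the 23. In the part before a transcript begins, the promoters of Tomm5 and Grpel1 held no match to any of the motifs. For Grpel1 this part was only 63 bases long.

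The transcript for the pore of the TOM complex was lower with Visomitin. Tomm40 (ENSMUSG00000002984), which forms the channel through the outer membrane, stood at 89.7, 87.4 and 108 TPM in control 1 to 3 and at 53.1, 63.4 and 74.0 TPM in Visomitin 1 to 3. All Visomitin values were below all control values, with a difference of -0.58 (SE 0.14, adjusted p = 0.041). Tomm40 passed without Visomitin 3 (adjusted p = 0.026). With any other library left out it did not pass, with adjusted p up to 0.13. Without the trend in limma, the adjusted p of Tomm40 was 0.072. Its paralog Tomm40l (ENSMUSG00000005674) stood at 88.5, 83.9 and 88.8 TPM in control and at 70.1, 79.1 and 78.9 TPM with Visomitin. Tomm40l also had ranges that did not overlap, but its difference of -0.19 did not pass (95% interval -0.39 to 0.00, adjusted p = 0.21). In control the paralogs were at similar levels, and in each Visomitin library Tomm40 was the lower of them. Whether the 2 genes differed in their change was not tested.

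Of the 3 receptors that recognise incoming proteins on the cytosolic face, Tomm70 fell. Tomm70 (ENSMUSG00000022752, Tomm70a in the reference table), which receives carrier proteins from cytosolic chaperones, went from 19.95, 18.6 and 20.45 TPM in control to 12.4, 13.6 and 15.0 TPM with Visomitin. Its groups did not overlap (-0.50, SE 0.11, adjusted p = 0.034), and it was the least abundant expressed TOM subunit in both groups. Tomm22, which holds the complex together, was at 79.0, 88.1 and 87.9 TPM and then at 68.5, 69.4 and 76.3 TPM, again without overlap, and did not pass (-0.25, adjusted p = 0.13). Tomm20, the main presequence receptor, was at 71.2, 78.6 and 81.2 TPM in control. Its Visomitin values were 90.1, 56.2 and 51.8 TPM, so that Visomitin 1 was above every control and Visomitin 2 and 3 below. The Tomm20 difference of -0.26 (SE 0.19, adjusted p = 0.44) was -0.50 without Visomitin 1, where it passed (adjusted p = 0.022). It was -0.11 without Visomitin 3 (adjusted p = 0.77) and passed in no other fit with a library left out.

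Of the 3 small subunits that stabilise the TOM complex, Tomm5 passed. Tomm5 (ENSMUSG00000078713) went from 135, 166 and 163 TPM to 114, 94.9 and 100.4 TPM, with no overlap (-0.58, SE 0.11, adjusted p = 0.020). Median-ratio scaling left Tomm5 with an adjusted p of 0.056. Tomm6, the most abundant member in every library, was at 219, 238 and 228 TPM and at 223, 200.3 and 187 TPM, with overlapping groups (-0.17, adjusted p = 0.29). Tomm7 was at 64.7, 67.0 and 58.9 TPM and at 76.8, 61.7 and 56.4 TPM (0.02, 95% interval -0.26 to 0.30), and its sign changed without Visomitin 1 or control 3. Summed over the complex, TOM transcripts came to 767, 827 and 836 TPM in control and to 709, 639 and 640 TPM with Visomitin, or 81.8% of the control mean.

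Samm50 (ENSMUSG00000022437), the core of the complex that inserts barrel proteins such as Tomm40 into the outer membrane, fell with little spread. It was at 51.7, 50.4 and 54.6 TPM in control and at 39.3, 39.2 and 40.7 TPM with Visomitin (-0.39, SE 0.08, adjusted p = 0.031). Tomm34, a cytosolic cochaperone for precursor proteins that is named with the TOM genes, was at 29.5, 31.2 and 31.3 TPM and at 24.6, 27.25 and 30.2 TPM (-0.16, adjusted p = 0.38).

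In the intermembrane space, 1 of 8 tested genes fell, 0 rose and 7 did not pass. The share of all tested genes called lower was 5.03%. Chchd4 (ENSMUSG00000034203), the oxidoreductase that traps small cysteine-rich proteins by giving them disulfide bonds, went from 13.4, 14.1 and 16.0 TPM to 8.46, 9.41 and 11.1 TPM. Its groups did not overlap (-0.54, SE 0.13, adjusted p = 0.046). Gfer, the sulfhydryl oxidase that reoxidises Chchd4, was at 13.7, 14.6 and 15.4 TPM and at 16.3, 14.6 and 14.7 TPM, with a difference of 0.06 (95% interval -0.18 to 0.30). The relay pair stood at nearly the same level in control, and Gfer was above Chchd4 in each Visomitin library.

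Of the small TIM chaperones, which shield membrane proteins on their way from TOM, 6 were tested and 0 passed limma. An unadjusted p under 0.05 was found for 2 of these chaperones, and for 24.4% of all tested genes. Timm10, which forms a chaperone ring with Timm9, had the largest difference among the small TIM chaperones. It was at 35.85, 47.9 and 55.8 TPM in control and at 27.3, 20.95 and 34.3 TPM with Visomitin, without overlap (-0.74, SE 0.20, adjusted p = 0.067). Leaving out Visomitin 3 brought Timm10 to an adjusted p of 0.039. With any other library left out Timm10 did not pass, with adjusted p up to 0.19. Its partner Timm9 was at 14.5, 12.9 and 17.6 TPM and at 13.05, 11.5 and 14.0 TPM, with overlapping groups (-0.20, adjusted p = 0.42). Timm13 and Timm8b, which work as a pair, were at means of 118 and 135 TPM in control and 102 and 123 TPM with Visomitin, with differences of -0.21 and -0.14. Both passed without Visomitin 1, at adjusted p = 0.049 for Timm13 and 0.048 for Timm8b. Neither passed with any other library left out, with adjusted p up to 0.65 for Timm13 and 0.81 for Timm8b. Timm10b, a chaperone bound to the TIM22 complex, was at 82.35 to 93.3 TPM in control and 81.5 to 99.9 TPM with Visomitin (0.05, adjusted p = 0.80, and -0.02 without Visomitin 1). Timm8a1, at 6.62 to 8.45 TPM and 5.03 to 6.37 TPM, was low in both groups and did not overlap (-0.34, adjusted p = 0.19).

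Among 12 genes of the inner membrane class, in which the import motor was counted, 2 fell, 0 rose and 10 did not pass. For comparison, 5.03% of all tested genes were called lower. Timm23 (ENSMUSG00000013701), the channel for presequence proteins, was at 118, 124 and 139 TPM in control and at 91.6, 93.1 and 101.9 TPM with Visomitin. The groups did not overlap (-0.41, SE 0.09, adjusted p = 0.035). Timm17a (ENSMUSG00000062580), which lies beside Timm23 in the translocase, had the largest difference of all members and did not pass. It was at 18.0, 18.45 and 28.35 TPM and at 6.69, 8.59 and 16.6 TPM, with control 3 and Visomitin 3 highest in their groups. Its difference of -1.02 had an SE of 0.30 (adjusted p = 0.081) and was -1.37 without Visomitin 3 (adjusted p = 0.014). With any other library left out it did not pass, with adjusted p from 0.11 to 0.23. The alternative subunit Timm17b was lower in level, at 4.64, 6.11 and 7.12 TPM and then at 5.21, 4.57 and 5.59 TPM, with overlapping groups (-0.17, adjusted p = 0.57).

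The other TIM23 subunits overlapped between groups. Timm50, the receptor facing the intermembrane space, was at 52.15 to 71.0 TPM in control and 46.4 to 58.9 TPM with Visomitin (-0.22, adjusted p = 0.38). Timm21, which links the TIM23 and TOM complexes, was at 4.94 to 7.75 TPM and 6.15 to 8.02 TPM (0.19, adjusted p = 0.55) and had the highest difference of all members.

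In the import motor, which pulls proteins into the matrix by cycles of Hsp70 binding, Grpel1 fell. Grpel1 (ENSMUSG00000029198), the nucleotide exchange factor of the motor, had the lowest p-value of all members: it went from 25.9, 27.85 and 28.3 TPM to 17.7, 19.3 and 19.5 TPM (-0.52, SE 0.10, adjusted p = 0.018). With no filter on low values, Grpel1 (adjusted p = 0.035) and Samm50 (0.036) were the 2 members that passed. Timm44, the scaffold of the motor, was at 44.3, 49.2 and 47.2 TPM and at 40.8, 39.8 and 39.3 TPM, without overlap (-0.22, adjusted p = 0.15). Pam16, which restrains the J-protein of the motor, was at 5.84, 5.82 and 6.39 TPM in control and at 5.47, 0.90 and 2.99 TPM with Visomitin. Its difference of -0.94 (SE 0.38, adjusted p = 0.17) was -0.46 without Visomitin 2 and -1.35 without Visomitin 1, and did not pass in either case. Dnajc19, the J-protein that Pam16 restrains, was at 53.8 to 63.5 TPM and 48.9 to 63.0 TPM (-0.05, adjusted p = 0.83), and its sign changed after quantile normalization, where the difference was 0.01.

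Neither tested gene of the TIM22 complex passed limma, and 0 had an unadjusted p under 0.05. Timm22, its channel, was at 23.5 to 30.8 TPM in control and 17.05 to 25.8 TPM with Visomitin (-0.26, adjusted p = 0.39), and Timm29, its docking subunit, at 19.98 to 21.65 TPM and 17.2 to 21.1 TPM (-0.13, adjusted p = 0.52). Immt, the main organiser of the cristae junctions, was at 108, 113 and 115 TPM and at 73.6, 99.5 and 102.2 TPM. Its groups did not overlap, Visomitin 1 lay well below the others, and the difference of -0.30 did not pass (SE 0.13, adjusted p = 0.19).

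Of the 3 matrix peptidase genes 0 passed limma and 1 had an unadjusted p under 0.05. The share of all tested genes with such a p was 24.4%. Pmpca, the substrate-binding subunit of the processing peptidase, was at 61.95, 63.6 and 68.0 TPM and at 47.6, 54.5 and 60.6 TPM, without overlap (-0.25, adjusted p = 0.19). The catalytic subunit gene Pmpcb was at 57.2, 58.5 and 56.0 TPM and at 51.6, 58.9 and 57.8 TPM, a difference of -0.03 (95% interval -0.23 to 0.17). Mipep, which trims some precursors further, was at 12.3, 12.2 and 12.8 TPM and at 11.8, 12.5 and 12.9 TPM (95% interval -0.24 to 0.23). The signs of Pmpcb and Mipep changed after median-ratio scaling and quantile normalization.

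**Figure D2:**
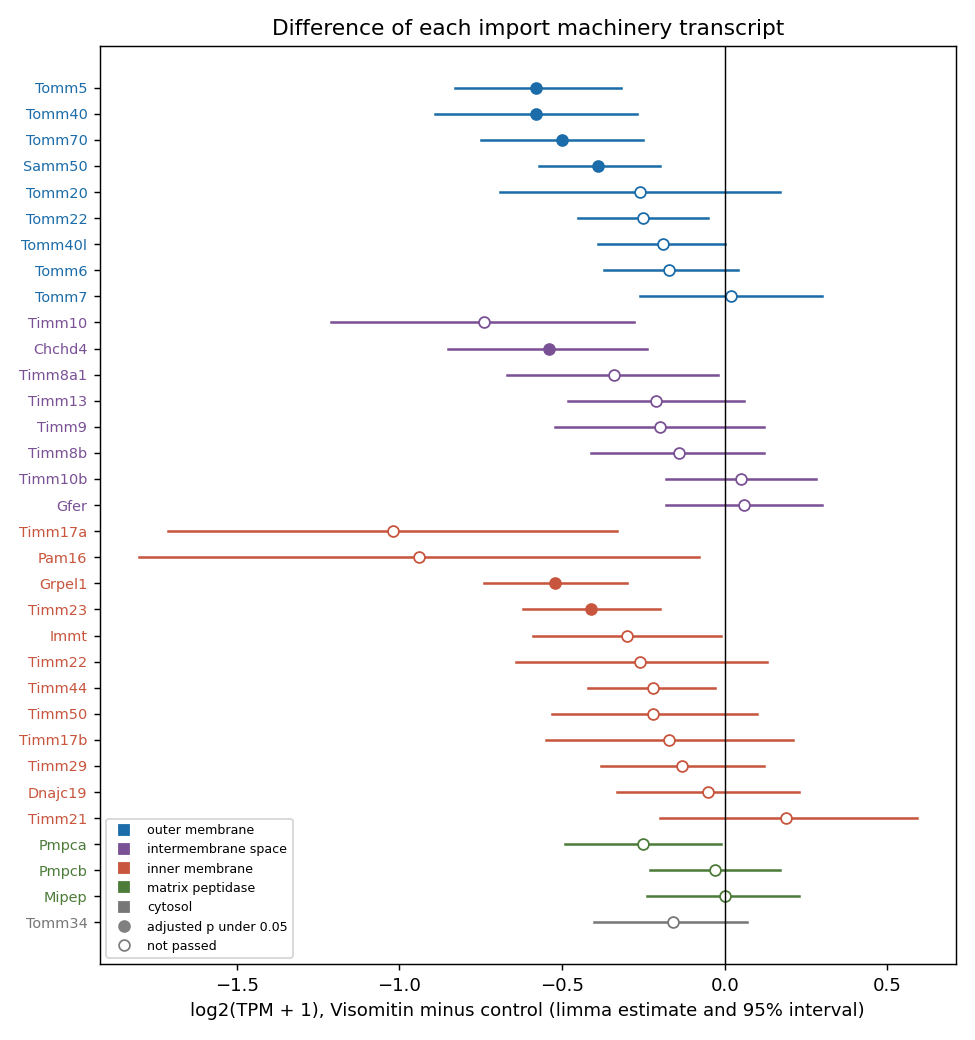
Difference of each tested import machinery gene, as log2(TPM + 1) with Visomitin minus control, with limma's estimate as a point and its 95% interval as a line. Genes are grouped by compartment in colour, and filled points mark the 7 with an adjusted p under 0.05. Timm17a (-1.02) and Pam16 (-0.94) lie furthest to the left and have the widest intervals.

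The outer and inner membrane classes had similar differences. In the outer membrane class (the TOM genes and Samm50) 4 of 9 tested genes fell and the median difference was -0.26. In the inner membrane class (TIM23, motor, TIM22 and Immt) 2 of 12 fell and the median was -0.24. The corresponding values over all tested genes were 5.03% called lower and a median of -0.03. Between Visomitin and control, the class mean of log2(TPM + 1) differed by -0.32 for outer and -0.34 for inner membrane genes, and by -0.26 for the intermembrane space and -0.10 for the matrix peptidases. Per library, the outer class mean exceeded the inner one by 1.49, 1.51 and 1.44 in control and by 1.55, 1.62 and 1.33 with Visomitin. The Visomitin values lay on both sides of the control values, and the group means of this gap differed by 0.02. The inner class mean includes Timm17a (-1.02) and Pam16 (-0.94), which did not pass, and Pam16 was at 0.90 TPM in Visomitin 2. With a filter of mean 5 TPM, which Pam16 did not reach, the group means of the gap differed by -0.04. Members were chosen with results known, so no p-value is given for this gap. The summed TPM stood at 81.5% of the control mean for the outer class and at 81.2% for the inner class, with no overlap between groups in either, and at 88.4% for the intermembrane space, where the groups overlapped. Among the sub-complexes, the TIM23 translocase had the lowest summed TPM relative to control at 76.8%, the disulfide relay stood at 85.6%, the motor at 85.5% and TIM22 at 87.1%.

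**Figure D3:**
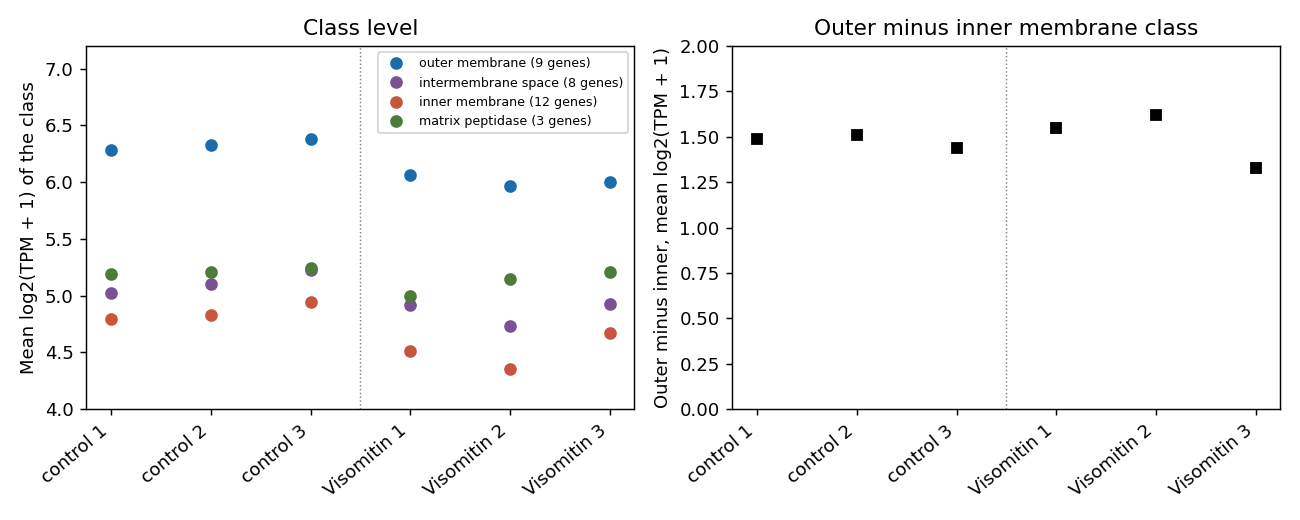
Left, mean log2(TPM + 1) of the tested genes of each compartment in each library. Right, the outer membrane mean minus the inner membrane mean in each library, from 1.44 to 1.51 in control and from 1.33 to 1.62 with Visomitin.

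Visomitin 1 differed from the other Visomitin libraries over all tested genes. Its mean log2(TPM + 1) over the members, 5.08, lay between those of Visomitin 2 and 3, at 4.97 and 5.15. Visomitin 1 had the lowest of the 3 Visomitin values for 63.4% of all tested genes and the highest for 17.6%. Its median-ratio size factor of 0.908 was the lowest of the 6 libraries. Among the 33 members Visomitin 1 was lowest for 16 (48.5%) and highest for 12 (36.4%). The same counts were not made for Visomitin 2 and 3. Across genes, the deviation of Visomitin 1 from the mean of Visomitin 2 and 3 had a Spearman correlation with transcript length of -0.25 over 11554 genes. Over the 33 members it was -0.45, all from the same libraries. The part of length in the results was not tested beyond the length and GC correction. Values of Visomitin 1 were above all controls for 5 genes (Tomm20, Tomm7, Timm8b, Timm10b and Gfer). Visomitin 2 was above all controls for 1 and Visomitin 3 for 2. Over all tested genes these shares were 20.3%, 32.9% and 36.8% for Visomitin 1, 2 and 3. The summed TPM of complex I genes was also higher in Visomitin 1, at 6423 against 5612 and 5604 TPM. Without Visomitin 1 the median of the outer class was -0.38 and that of the inner class -0.21, and the mean gap between the classes differed by -0.01.

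Other mitochondrial gene families had similar medians in the same fit. Of 78 tested mitochondrial ribosomal protein genes 8 fell and 0 rose, 10.3% called lower with a median of -0.22. Of 36 tested complex I subunit genes 6 fell and 0 rose, 16.7% called lower with a median of -0.24. These shares compare with 21.2% lower and a median of -0.22 for the import machinery and with 5.03% of all tested genes. Whether the families differ was not tested.

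Among 39 genes that act beside the import machinery, all of them tested, 6 fell, 0 rose and 33 did not pass. The median difference of the 39 was -0.16, and 15.4% were called lower, against 5.03% of all tested genes. At unadjusted p under 0.05 there were 14 of 39, 0 of them higher. Of all tested genes 24.4% met this limit, and 15.2% met it and were lower. Hspd1 and Hspe1, the chaperonin and cochaperonin that fold imported proteins in the matrix, both fell. Hspd1 went from 169, 156 and 181 TPM to 101.6, 108 and 116 TPM (-0.63, SE 0.09, adjusted p = 0.0058), and Hspe1 from 227, 263 and 278 TPM to 191, 162 and 179 TPM (-0.53, SE 0.10, adjusted p = 0.021). Dnaja3, a matrix J-protein, fell from 49.55, 50.5 and 53.9 TPM to 35.2, 37.4 and 42.2 TPM (-0.42, SE 0.10, adjusted p = 0.041).

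Micos10 (Minos1 in the reference table), a small subunit of the MICOS complex that Immt organises, had the largest change of these genes. It fell from 91.9, 96.9 and 112 TPM to 60.7, 59.1 and 51.8 TPM (-0.80, SE 0.11, adjusted p = 0.0041). Of the other MICOS genes, Micos13 (-0.39, adjusted p = 0.076) and Chchd3 (-0.33, adjusted p = 0.055) had ranges without overlap and did not pass. Dnajc11, an outer membrane J-protein that binds MICOS and the Samm50 complex, fell from 46.0, 48.3 and 54.7 TPM to 31.3, 35.3 and 37.7 TPM (-0.50, SE 0.11, adjusted p = 0.031). The prohibitin gene Phb1 (Phb in the reference table), whose protein forms rings in the inner membrane, fell from 214, 215 and 261 TPM to 183, 167 and 146 TPM (-0.48, SE 0.11, adjusted p = 0.044). Phb1 did not pass after median-ratio scaling (adjusted p = 0.10) or quantile normalization (0.084), and Hspe1 did not pass after median-ratio scaling (0.055). The partner of Phb1, Phb2 (-0.29, adjusted p = 0.10), and the inner membrane protease gene Afg3l2 (-0.43, adjusted p = 0.068) did not pass. Afg3l2 did pass after median-ratio scaling (adjusted p = 0.03) and quantile normalization (0.033). After the length and GC correction Afg3l2 (0.02), Phb2 (0.028) and Chchd3 (0.02) passed and Phb1 (0.082) did not. Hspa9, the Hsp70 of the import motor, named after its values were seen, was at 180.4, 179.9 and 191 TPM and at 139, 155 and 169 TPM, without overlap (-0.25, adjusted p = 0.14). With a library left out, Micos10 and Hspd1 passed in all 6 fits, Hspe1 in 3, Dnajc11 in 2 and Dnaja3 and Phb1 in 1 each.

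**Figure D4:**
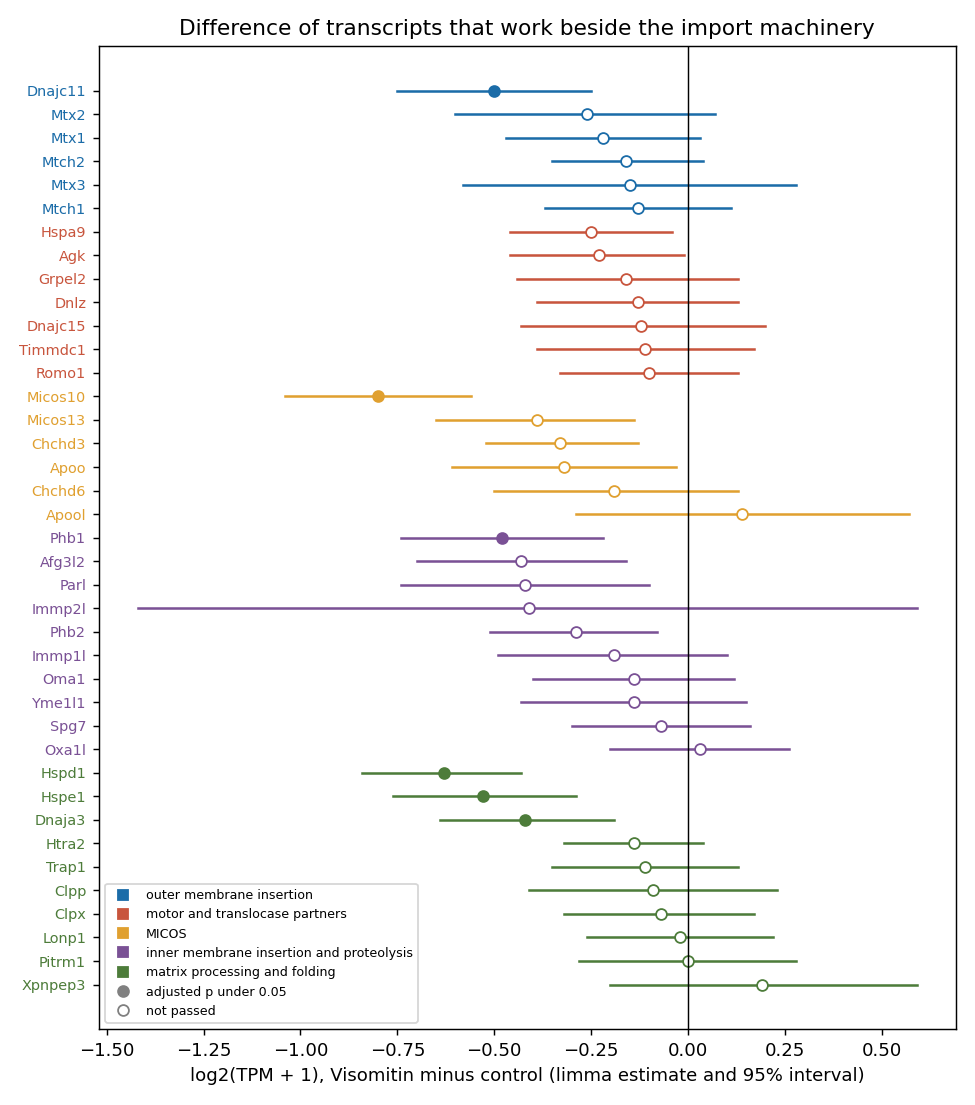
Difference of the 39 genes that work beside the import machinery, as log2(TPM + 1) with Visomitin minus control, with limma's estimate and its 95% interval. Filled points mark the 6 with an adjusted p under 0.05 and colours give the role. Micos10 (-0.80) and Hspd1 (-0.63) have the lowest values.

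Some members share sequence with other genes, and the labels do not say how reads that fit several genes were handled. Words of 31 bases from the transcripts of Timm23 were shared with Gm10273 for 57.7%, and Gm10273 was listed at 0 in every library. Tomm6 shared 71.8% of its words with the overlapping gene Gm21981, listed at no more than 0.77 TPM. Timm8a1 and Pam16 are uncertain. Timm8a1 shared 41.8% with Gm9797, a transcribed pseudogene that was more abundant, at 9.70 to 44.1 TPM. Summed with Gm9797, Timm8a1 stood at 31.4, 29.98 and 52.5 TPM in control and at 14.7, 46.97 and 36.6 TPM with Visomitin, with overlapping groups. Pam16 shared 20.8% with Gm9803, which was at 25.3, 38.3 and 31.2 TPM in control and 28.5, 39.99 and 21.8 TPM with Visomitin (-0.09, adjusted p = 0.84). Summed with Gm9803, Pam16 stood at 31.1, 44.1 and 37.6 TPM and at 34.0, 40.9 and 24.8 TPM, so that the groups overlapped. Timm10b shared 10.1% with the overlapping gene Gm45799, at 3.45 to 25.1 TPM. For the other members that fell, the shared part was at most 8.86% of words (Tomm5). Tomm70 and Grpel1 overlap genes on the opposite strand, Nit2 (17.4 to 23.9 TPM) and Tada2b (6.02 to 9.29 TPM), and whether reads were counted by strand is not given.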

How the data were processed

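RNA was measured by stranded mRNA sequencing in 6 mouse libraries, 3 control and 3 Visomitin, grouped by their titles. The deposited values are TPM calculated by the authors for every gene, each column summing to 1000000. The submitters' processing notes name fastp, HISAT2 and StringTie; for versions, genome build, annotation and counting: not given in the sources used. TPM hold no counts, so depth is unknown and no counting interval is possible.

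Symbols and biotypes were joined to Ensembl identifiers from reference tables (GENCODE names, GRCm38), and all 35 members matched. The 11753 genes that reached 1 TPM in 3 or more of the 6 libraries were fitted as log2(TPM + 1), pseudocount 1, with limma 3.58.1 in R 4.3.3 (trended eBayes, group as the only term, 4 residual degrees of freedom), two-sided, with Benjamini-Hochberg adjustment over all tested genes. The fit was tested on simulated data. The members and lists were chosen with earlier results of these data known. Every member is named, with those related genes that passed and the 4 with the lowest p-values among the rest, plus Hspa9. Alternatives were 14 planned settings and 1 chosen after seeing the data, a length and GC correction. Promoter sequences come from RefSeq (GRCm38.p6).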

Additional observations from a re-analysis of the deposited data

How the results depend on the processing

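Of 494 values of single members over 15 alternative settings, 430 kept their direction and their side of the threshold, 41 lost a call, 8 gained one and 15 changed sign; no member rose in any of them. The count of members that fell was 2 when low genes were not filtered out, was 3 without the trend, and ran from 0 to 8 with a library left out. For the related genes it was 2 with no filter and 2 without the trend, and 2 to 7 with a library left out. Over all tested genes 591 were lower and 244 higher. The lower count was 308 with no filter, 975 after the length and GC correction and 244 to 561 with a library left out. The higher count was 73 with no filter, 496 after median-ratio scaling, 559 after quantile normalization, 718 after the length and GC correction and 64 to 420 with a library left out. The outer membrane median was -0.38 to -0.22 with a library left out. The cause of these changes was not tested, beyond the larger number of genes tested without a filter (22323) and the lost degrees of freedom.

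Signs changed for 5 genes with values near 0. With a library left out, Dnajc19 ran from -0.13 to 0.06 (0.06 without Visomitin 2), Pmpcb from -0.07 to 0.03 (0.03 without Visomitin 1), Mipep from -0.03 to 0.03 (0.03 without Visomitin 1, 0.02 without control 3), Tomm7 from -0.10 to 0.12 (-0.10 without Visomitin 1, -0.03 without control 3) and Timm10b from -0.02 to 0.12 (-0.02 without Visomitin 1). After quantile normalization Dnajc19 was 0.01, Pmpcb 0.02 and Mipep 0.05. After median-ratio scaling Pmpcb was 0.02 and Mipep 0.04. After correcting for length and GC content, an alternative added once the data had been seen, Dnajc19 was 0.00, Pmpcb 0.01 and Mipep 0.03. The cause was not tested.

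The library numbers do not pair the samples by the labels, and residual correlations within a number were 0.046, 0.020 and 0.173, with 3 of 6 libraries correlating best with their own number. With the library number as a block, 9 members fell, the original 7 with Timm10 and Timm17a, 8 related genes fell, and over all genes 799 were lower and 308 higher; the member median stayed at -0.22 and the outer minus inner difference at 0.02.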
